A study of Mus musculus with 38 samples.

Results

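The genes described here make up the interstitial matrix: the collagen chains, the proteoglycans and glycoproteins that bind them, and the enzymes that fold, trim and crosslink them. The members were chosen by symbol and not by a threshold on their values, with earlier results of these data known. They were the rows of the deposited table that name a collagen chain, leaving out Col4a1 and Col4a2, and 27 further genes taken by name, and the rule found 60 of the 13260 genes in the table. Of these, 33 were collagen chains, namely 11 fibrillar, 8 FACIT (fibril-associated), 5 network-forming, 3 of collagen VI, 2 transmembrane and 4 other chains. The remaining 27 were 8 small leucine-rich proteoglycans, 2 large proteoglycans, 5 genes of collagen maturation, 5 of crosslinking and 7 glycoproteins or elastic fibre genes.

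Collagen chains wind into helical trimers in the endoplasmic reticulum, where they are hydroxylated by enzymes such as the Plod lysyl hydroxylases and held in shape by the chaperone Serpinh1. After secretion the ends are trimmed, with Pcolce as an enhancer of that step, and Lox and its relatives crosslink the molecules in fibrils whose width is tuned by decorin, lumican and other small proteoglycans. Collagen I is the main protein of bone, collagens II, IX and XI with aggrecan make up cartilage, and collagen III with versican marks looser, more pliable connective tissue.

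The RNA came from the bones of C57Bl/KaLwRij mice that were 8 to 10 weeks old when they received an intravenous injection and were killed at day 23. Healthy mice had received only the PBS vehicle, and myeloma-bearing mice had received 5TGM1-GFP cells, myeloma cells of mouse origin made visible by green fluorescent protein. Cells were released from crushed bone with collagenase, so every niche population had passed through an enzyme that digests the matrix studied here, and 100 cells per library were sorted and amplified by SmartSeq2, a full-length cDNA protocol that selects polyA RNA. CD31+ endothelial cells (EC) and Sca1+ALCAM- stromal progenitors (SP) gave 5 libraries each from healthy and from myeloma-bearing mice, ALCAM+Sca1- osteoprogenitors (OP) gave 4 and 4, and GFP+ myeloma cells gave 5 from the bone lining (MM lining) and 5 from the central bone marrow (MM central). All the myeloma cells derive from a single cell line, and the sorted niche populations are defined by surface markers, with CD45+ and Ter119+ blood cells gated out of all 3 and CD31+ cells out of SP and OP. Libraries of a group came from different mice, and each is named here by the letter in its code. A letter was not shown to tie libraries of different groups to 1 mouse.

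Reads on genes ran from 9735031 to 34883291 per library, and a difference in RPKM (reads scaled to gene length and to a size set for each library) between bulk libraries cannot tell fewer cells of a type from less RNA per cell. The summed level of 5 endothelial markers was 613 to 1626 RPKM in EC and at most 26.0 in every other group, and that of 5 myeloma cell markers was 3157 to 9840 in MM and at most 35.6 elsewhere. Bglap, the osteoblast gene for osteocalcin, averaged 20402 RPKM in healthy OP and 50.6 in healthy SP. Of 6 stromal progenitor markers, Ly6a alone passed the test between healthy OP and SP, and the summed level of the list was higher in healthy EC (2724 to 8974 RPKM) than in healthy SP (1105 to 2171). Ly6a, which encodes the sorting marker Sca1, averaged 1365 RPKM in healthy SP, 40.5 in healthy OP and 4445 in healthy EC, and Alcam differed by 2.15 between healthy OP and SP without passing the test (adjusted p = 0.109 by limma). A few libraries stood apart. SP healthy L and SP myeloma E carried neutrophil transcripts despite the CD45 gate (summed level of 4 markers 7233 and 8061 RPKM), EC myeloma J held 24.3 RPKM of Col2a1 (at most 0.522 in the other 4 of its group), and MM lining J carried several members far above the other 4 libraries of its group. Values with and without them are given where a result rests on them. Chondrocyte markers were high in both mesenchymal populations. Of 8 listed, 6 were in the table, none of them at 0 throughout a group, and their summed level was 29236 to 61439 RPKM in healthy SP, 11655 to 59196 in myeloma SP, 32717 to 61243 in healthy OP and 20371 to 40520 in myeloma OP, against at most 1981 in EC, reached in healthy L, and 252 in MM.

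The matrix genes took a large part of the RNA of both mesenchymal populations and very little of the other cells. Per library, the 60 members held 14.9% to 18.4% of the reads on genes in healthy SP, 12.7% to 16.6% in myeloma SP, 11.1% to 14.9% in healthy OP and 13.1% to 17.0% in myeloma OP. In EC they held 0.396% to 0.939%. In MM they held at most 0.121%, in MM lining J, and 0.0132% at least. What filled this share differed between the mesenchymal populations. Decorin alone took 9.48% ± 1.52 (SD, n = 5) of the reads in healthy SP and 2.99% ± 1.24 (n = 4) in healthy OP. Collagen chains took 2.17% ± 0.515 in healthy SP and 5.33% ± 1.61 in healthy OP.

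**Figure D1:**
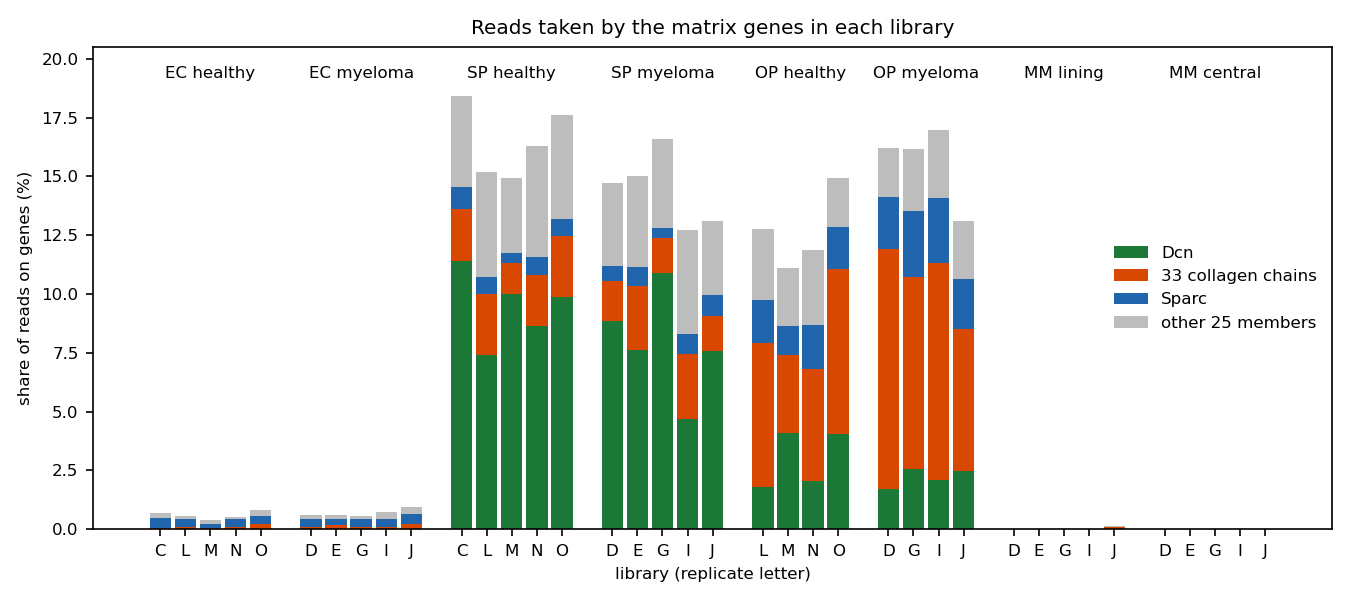
Share of the reads on genes, in percent, taken by Dcn, the 33 collagen chains, Sparc and the other 25 members in each of the 38 libraries, grouped by cell type and condition, with letters naming the replicates. The bars reach 11.1% to 18.4% in SP and OP and stay under 1% in EC and MM, and decorin is the largest part of every SP bar while collagen chains are the largest part of every OP bar other than that of healthy M.

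Dcn (decorin, chr10:97479500-97518163 in GRCm38), which binds collagen fibrils and sets their spacing, was the most abundant member in SP. Its level ranked between 1 and 3 among all genes in the SP libraries and between 4 and 10 in the OP libraries. In letter order, as in all lists of values here, healthy SP held 64514, 48981, 62852, 55544 and 65121 RPKM and myeloma SP 53506, 48713, 59278, 31527 and 58118. Healthy OP held 8817, 21789, 10510 and 22999 RPKM and myeloma OP 9712, 13171, 11826 and 12668. All 10 SP libraries lay above all 8 OP libraries. EC ranged only from 5.14 to 57.3 RPKM and MM from 4.54 to 13.0.

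Of the 60 members, 28 had their highest mean level in SP, 24 in OP, 6 in EC and 2 in MM. A mean above 100 RPKM was reached by 23 members in SP, 27 in OP, 2 in EC and none in MM, where 13 members exceeded 1 RPKM (7 without MM lining J) and none exceeded 10. In several roles the leading gene differed between cell types. Among fibrillar collagens it was Col3a1 in SP (mean 1829 RPKM over 10 libraries), Col1a2 in OP (5830 over 8) and Col3a1 in EC (20.9, through 1 myeloma library at 116 RPKM, against 19.6 for Col1a2). Among FACIT chains, which sit on the surface of fibrils, it was Col12a1 in SP (34.1 RPKM), Col9a3 in OP (231), Col16a1 in EC (2.06, through 1 healthy library at 20.5 RPKM) and Col20a1 in MM (2.46). Large proteoglycans were led by Vcan in SP (61.0 RPKM) and by Acan in OP (107). Decorin led the small proteoglycans in SP (54816 RPKM) and OP (13937), and biglycan (Bgn) led them in EC (151). Pcolce led the maturation genes in SP (413 RPKM) and OP (330), and Plod1 led them in EC (75.1) and MM (7.25). Lox was the leading crosslinking enzyme in SP (187 RPKM) and OP (98.1), and its EC mean of 27.0 came mainly from 1 library of 230 RPKM. Sparc, a secreted glycoprotein that binds collagen and mineral, led the glycoproteins in all 4 cell types, with means of 10059 RPKM in OP, 4153 in SP, 1404 in EC and 6.37 in MM (1.55 without MM lining J).

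**Figure D2:**
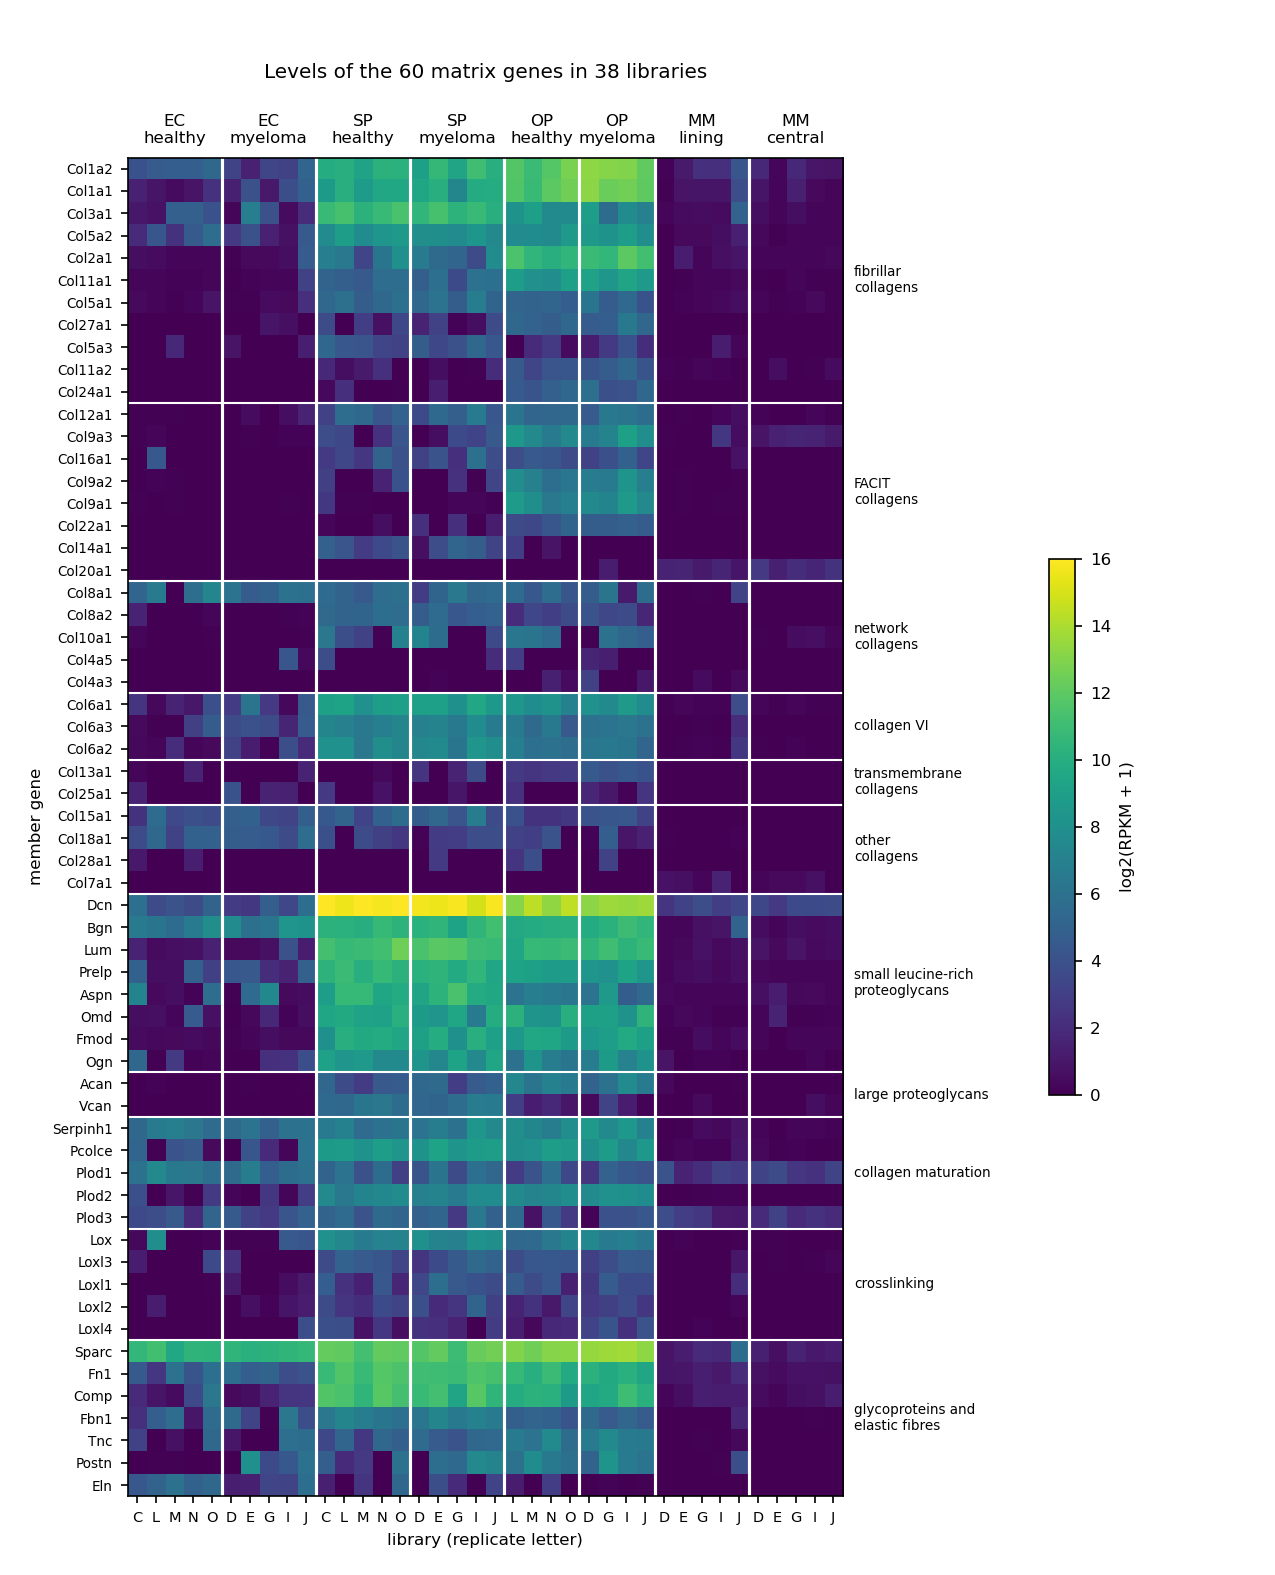
Level of each of the 60 members, as log2(RPKM + 1), in each of the 38 libraries (columns, grouped by cell type and condition, letters naming the replicates), with rows grouped by role. SP and OP columns are bright for the fibrillar collagens, the small proteoglycans and the glycoproteins, the collagen II, IX and XI rows are bright mainly in OP, and MM lining J stands out from the other MM columns.

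The first comparison set the mean of healthy SP and OP against healthy EC. Of 55 members tested, 45 were higher in the mesenchymal cells and 2 were lower, where 13.7% of all 9952 genes tested were called higher and 7.95% lower. Of the 45, 26 exceeded 1 RPKM in at most 1 EC library and so passed the filter through the cells where they were high, and 19 did not. A call required an adjusted p below 0.1 from limma and a difference above 1 on the log2(RPKM + 1) scale, and this rule holds throughout. The median difference of the members was 4.18, against 0.31 over all genes tested. The 19 included Col1a1, Col1a2, Col3a1 and Col5a2 among the fibrillar chains, Dcn, Bgn, Lum, Aspn, Ogn and Prelp among the small proteoglycans, Col6a1 and Col6a3 of collagen VI, and the crosslinking enzyme Loxl3, which shares exonic bases with Htra2 on the opposite strand. The largest differences were those of Dcn (10.39 ± 0.34, SE), Lum, the small proteoglycan lumican (9.90 ± 0.41), Col1a1 (9.36 ± 0.43), Fmod or fibromodulin (8.85 ± 0.46), Col2a1 (8.04 ± 0.64), Omd (8.01 ± 0.66), Comp (7.91 ± 0.72), Prelp (6.92 ± 0.66), Col11a1 (6.61 ± 0.53) and Col6a1 (6.54 ± 0.56). The adjusted p by limma was at most 4.29e-07 for Dcn, Lum, Col1a1, Comp, Prelp and Col6a1. For Fmod, Col2a1, Omd and Col11a1, which are among the 26, the difference is a description only.

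Some matrix genes were high in the EC libraries too. Eln, which encodes elastin, the rubber-like core of elastic fibres, was lower in the mesenchymal cells (difference -3.69, 95% interval -5.54 to -1.84, adjusted p = 0.00646). Healthy EC held 19.3, 33.7, 60.8, 29.7 and 41.1 RPKM of it, healthy SP 1.70, 0, 4.51, 0.0121 and 40.3 and healthy OP 1.45, 0.0419, 6.42 and 0. The EC values overlapped those of SP through 1 SP library, O. All 5 pericyte and smooth muscle markers listed were in the table, and their summed level was 153 to 557 RPKM in healthy EC, 20.9 to 275 in healthy SP and 27.0 to 115 in healthy OP. Myh11, the smooth muscle myosin, stood at 3.44 to 26.0 RPKM in healthy EC and at most 0.472 in healthy SP and OP. Cspg4 of the same list went the other way, with means of 0.471 RPKM in healthy EC, 19.1 in healthy SP and 16.2 in healthy OP. The part of such cells in the Eln level of EC was not tested. Plod1, a lysyl hydroxylase, was also lower (95% interval -3.37 to -0.63, adjusted p = 0.0430), from a mean of 93.2 ± 51.6 RPKM (SD, n = 5) in EC to 34.4 ± 25 RPKM (SD, n = 5) in SP and 22.4 ± 23.6 RPKM (SD, n = 4) in OP. Serpinh1 averaged 76 ± 33.8 RPKM (SD, n = 5) in EC and did not pass the test (0.73 ± 0.44, adjusted p = 0.293). Col8a1, Col15a1 and Col18a1, chains found in vessel walls and basement membrane zones, gave differences of 0.17, -0.07 and -1.81 and did not pass either. Sparc was high in EC, at 1569, 2241, 786, 1360 and 1293 RPKM, and still higher in the mesenchymal cells (2.02 ± 0.23, adjusted p = 4.00e-06).

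Osteoprogenitors and stromal progenitors expressed different matrices. In healthy mice 54 members were tested between them, and 12 were higher in OP and 8 lower, where 1.69% of the 8707 genes tested were called higher and 1.90% lower. Of the 12, Col9a1, Col13a1, Col22a1 and Col24a1 exceeded 1 RPKM in at most 1 SP library and passed the filter through OP, where they were high, so their differences are a description only. By role, 6 of 11 fibrillar chains and 4 of 7 FACIT chains were higher in OP, while 3 of 8 small proteoglycans were lower and none was higher. The fibrillar count includes Col24a1 and the FACIT count includes Col9a1 and Col22a1, for which the difference is a description only. The median difference was 2.38 for fibrillar chains and -1.14 for small proteoglycans, against 0.00 over all genes. None of the 5 maturation genes and none of the 5 crosslinking enzymes passed the test.

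Both chains of collagen I, the collagen of bone, rose in OP. For Col1a1, healthy SP held 428, 1048, 465, 786 and 773 RPKM and healthy OP 3235, 1798, 4052 and 5918, with no overlap and a difference of 2.38 ± 0.36 (adjusted p = 0.00267). For Col1a2, healthy SP held 942, 1058, 595, 1251 and 1175 RPKM and healthy OP 3358, 1911, 3485 and 7099, again with no overlap (1.87 ± 0.35, adjusted p = 0.00951). The lowest OP library of Col1a1 was M and the highest was O, and the same libraries were lowest and highest for Col1a2.

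Collagen III went the other way. Col3a1, whose product mixes with collagen I in extensible tissues, stood at 1743, 2625, 1224, 1836 and 2665 RPKM in healthy SP and at 280, 514, 189 and 195 in healthy OP, and it fell by 2.84 in OP (SE 0.35, adjusted p = 5.87e-04). All SP libraries lay above all OP libraries. In its fibrillar role it was the only chain called lower. Col5a3 had the next largest negative value (-2.79 ± 0.89) but did not pass (adjusted p = 0.146), and Col5a2, a collagen V chain whose gene lies beside Col3a1 on chromosome 1, differed by -0.36 ± 0.35 (95% interval -1.12 to 0.40).

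The cartilage collagens gave large differences. Col2a1, the chain of collagen II, ranged from 8.99 to 260 RPKM in healthy SP and stood at 2867, 1465, 1064 and 1481 in healthy OP, a difference of 4.48 ± 0.70 (adjusted p = 0.00311). Col9a1, a chain of the collagen that coats collagen II fibrils, stood at 5.09, 0.0904, 0.0716, 0.0118 and 0.0345 RPKM in healthy SP and 458, 252, 84 and 119 in healthy OP (6.95 ± 0.81). Apart from 1 library at 5.09, SP was close to 0 for this gene. Its partners Col9a2 (4.98 ± 0.90) and Col9a3 (4.81 ± 0.79) rose in OP, although some exonic bases of Col9a3 are shared with Tcfl5 on the opposite strand and the counting, run with default parameters, did not use strand, so that reads of such a pair cannot be told apart. Col11a1, a chain of the collagen at the core of cartilage fibrils, went from 20.8 to 52.8 RPKM in SP to 229 to 532 in OP (3.28 ± 0.43, adjusted p = 0.00105), and Col11a2 rose by 2.93. Aggrecan (Acan), the large proteoglycan of cartilage, stood at 37.4, 11.8, 6.18, 21.3 and 24.1 RPKM in SP and 170, 69.9, 131 and 89.8 in OP and rose by 2.60 (adjusted p = 0.0228).

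Chondrocyte markers that are no members moved in both directions in the same comparison. Matn3 (6.13), Lect1 (5.05) and Hapln1 (3.05) rose in OP, Chad fell by 1.03, and Cytl1 (0.17, mean 30866 RPKM in OP and 27886 in SP) and Ucma did not pass. Sox9, a transcription factor of cartilage and early skeletal cells, rose by 1.69. In myeloma-bearing mice Matn3 (6.82), Lect1 (6.41) and Hapln1 (2.89) rose again, and Chad, Cytl1, Ucma and Sox9 did not pass. The part of chondrocytes in the rise of the cartilage collagens was not tested.

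Further collagens had a low level in SP. Col24a1, a fibrillar chain known from developing bone, was at most 3.42 RPKM in healthy SP and 21.8, 17, 28.4 and 40.7 in healthy OP (4.22 ± 0.83). Col22a1, a FACIT chain of tissue junctions, was at most 0.478 RPKM in SP and 11.5, 10.3, 18.7 and 35.4 in OP (3.98 ± 0.75). Col13a1, a transmembrane collagen, was at most 0.284 RPKM in SP and 5.54, 4.61, 5.41 and 6.26 in OP (2.61 ± 0.57). Of the 3, only Col24a1 exceeded 1 RPKM in an SP library, in 1. Col10a1, the collagen of hypertrophic cartilage, whose exonic bases are partly shared with Nt5dc1 on the opposite strand, was uneven within both groups, with 0.0585 to 132 RPKM in SP and 0.0521 to 76 in OP, and gave a difference of 0.46 with an interval of -2.63 to 3.56.

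The proteoglycans called different, other than aggrecan, were lower in OP. Vcan (versican), a large proteoglycan of loose connective tissue, stood at 42.7, 39.9, 73.5, 81.5 and 49.9 RPKM in healthy SP and 6.92, 1.47, 2.54 and 0.952 in healthy OP, and fell by 4.04 (SE 0.65, adjusted p = 0.00403). Aspn (asporin), a small proteoglycan of joint and ligament tissue, stood at 489, 1714, 1681, 703 and 930 RPKM in SP and 66.9, 116, 93 and 78.3 in OP, and fell by 3.49 (SE 0.40, adjusted p = 3.01e-04). Decorin fell by 2.01 (SE 0.28, adjusted p = 0.00158) and Prelp, which links collagen to cell surfaces, by 1.47 (SE 0.26, adjusted p = 0.00705). For none of these 4 did the groups overlap. Among tendon and fibroblast markers, Dpt (-3.34) and Scx (-4.13) fell in the same comparison, and Tnmd (-0.65) and Mkx (-0.12) did not pass. The part of such cells in these falls was not tested.

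Not all members of the family, or neighbours of these genes, passed the test. Lum, which lies next to Dcn on chromosome 10, held 2440, 1675, 1937, 2241 and 5738 RPKM in SP and 718, 1716, 1614 and 1939 in OP and did not pass (-0.85 ± 0.38, adjusted p = 0.354). Omd and Ogn, which lie beside Aspn on chromosome 13, differed by -0.34 (95% interval -1.29 to 0.62) and -1.43 (-2.48 to -0.37) and did not pass. Fmod, on chromosome 1 near Prelp, differed by -0.30 (-1.16 to 0.55) and Bgn, on the X chromosome, by -0.41 (-0.94 to 0.12). A difference between neighbours was not itself tested.

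Among the glycoproteins, Fbn1, which encodes fibrillin-1 of the microfibrils, fell by 1.70 (SE 0.46, adjusted p = 0.0714) and Comp, a pentameric protein of cartilage and tendon, by 1.55 (SE 0.35, adjusted p = 0.0289). Comp was high in both populations, at 3244, 2706, 1388, 3643 and 2441 RPKM in SP and 971, 1230, 1117 and 426 in OP. Sparc stood at 4788, 4285, 2380, 4467 and 4416 RPKM in SP and 8077, 5858, 8785 and 9164 in OP, with no overlap, and its difference of 0.99 ± 0.25 passed the adjusted p (0.0519) but not the fold threshold. Fn1 (fibronectin, -0.96 ± 0.31), Tnc (tenascin-C, 2.20 ± 0.66) and Postn (periostin, 3.43 ± 1.00) did not pass. The groups overlapped for Fn1 and Postn and did not for Tnc, at 5.02 to 40.2 RPKM in SP and 49.2 to 199 in OP. The network collagen Col8a2 fell by 2.45 (SE 0.58, adjusted p = 0.0349).

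None of the 10 enzymes and helpers that modify collagen passed the test. Serpinh1, the collagen chaperone, held 91.7, 131, 47.9, 60.5 and 73.3 RPKM in healthy SP and 242, 160, 111 and 229 in healthy OP (1.21 ± 0.41, adjusted p = 0.184). Lox held 271, 170, 94.4, 133 and 144 RPKM in SP and 37.4, 44.2, 85.1 and 147 in OP (-1.17 ± 0.47, adjusted p = 0.287). Both genes overlapped between the groups and neither passed. Pcolce (-0.20, 95% interval -0.87 to 0.47) and Plod2 (0.22, -0.56 to 0.99) had the narrowest intervals of the 10. Collagen VI, a beaded filament around cells, gave differences of -1.03 for Col6a1, -1.41 for Col6a2 and -1.19 for Col6a3, and none passed.

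**Figure D3:**
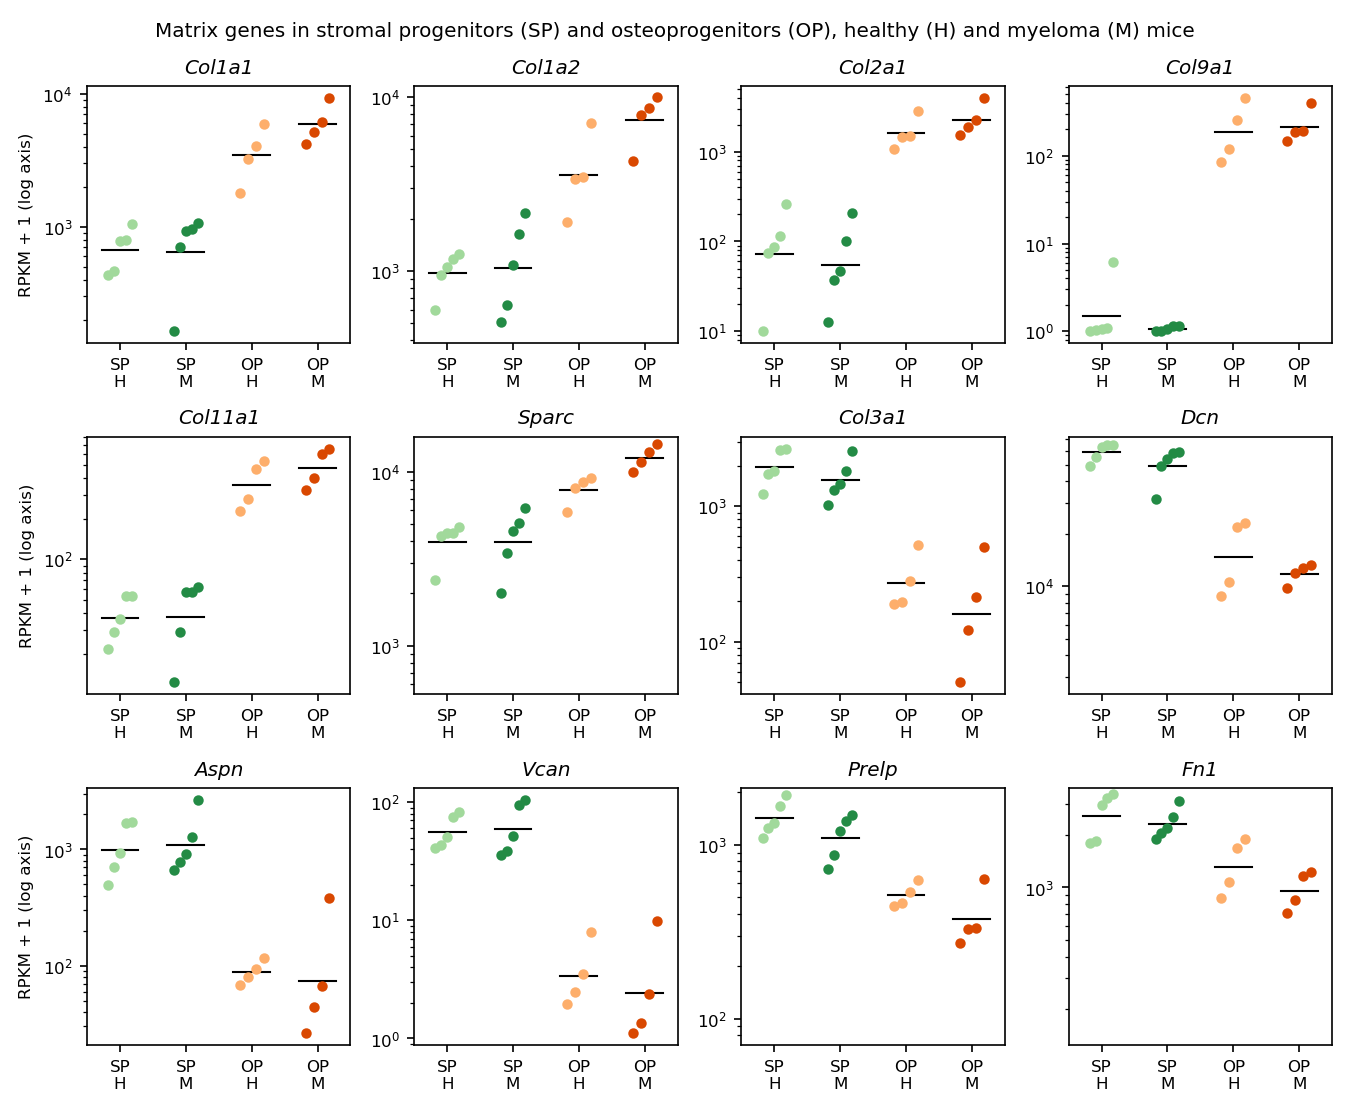
Levels of 12 members in SP and OP libraries of healthy (H) and myeloma-bearing (M) mice, as RPKM + 1 on a log axis, with each point a library and each line the mean of the log values of a group. Col1a1, Col1a2, Col2a1, Col9a1, Col11a1 and Sparc lie higher in OP, and Col3a1, Dcn, Aspn, Vcan, Prelp and Fn1 lie lower, in both conditions.

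The promoters of 4 genes that separated OP from SP are printed because Col1a2 and Col11a1 rose while Col3a1 and Vcan fell in both comparisons. Each is the 250 bases before a transcript start from the RefSeq promoter table in GRCm38.p6, which for Col11a1 and Vcan lies inside the outer bounds of the gene, written 5′ to 3′ on the strand of the gene, and capitals mark TATAAA or CCAAT on either strand.

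Col1a2, chr6:4505368-4505617, plus strand: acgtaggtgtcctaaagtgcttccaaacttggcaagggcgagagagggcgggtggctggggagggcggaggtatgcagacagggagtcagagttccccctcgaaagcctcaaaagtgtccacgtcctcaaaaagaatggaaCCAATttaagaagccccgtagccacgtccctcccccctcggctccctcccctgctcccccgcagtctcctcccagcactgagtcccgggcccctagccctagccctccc
Col11a1, chr3:114030290-114030539, plus strand: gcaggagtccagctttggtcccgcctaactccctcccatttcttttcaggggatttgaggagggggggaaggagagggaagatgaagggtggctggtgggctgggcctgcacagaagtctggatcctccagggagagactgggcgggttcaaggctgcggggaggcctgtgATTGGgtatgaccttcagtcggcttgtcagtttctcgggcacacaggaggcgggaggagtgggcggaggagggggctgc
Col3a1, chr1:45311288-45311537, plus strand: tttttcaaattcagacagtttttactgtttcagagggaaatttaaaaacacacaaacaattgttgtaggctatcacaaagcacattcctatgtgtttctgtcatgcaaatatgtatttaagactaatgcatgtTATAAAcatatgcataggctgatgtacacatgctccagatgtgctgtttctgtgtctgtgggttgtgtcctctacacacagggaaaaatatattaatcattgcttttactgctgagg
Vcan, chr13:89742513-89742762, minus strand: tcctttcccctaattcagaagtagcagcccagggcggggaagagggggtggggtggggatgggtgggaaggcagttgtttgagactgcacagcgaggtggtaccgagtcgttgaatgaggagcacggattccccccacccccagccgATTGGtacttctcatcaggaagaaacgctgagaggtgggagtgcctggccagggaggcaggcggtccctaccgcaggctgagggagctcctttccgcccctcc

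In these windows CCAAT began 109 bases before the transcript start of Col1a2 on the same strand, and it was found on the opposite strand in Col11a1 and Vcan, while the window of Col3a1 held TATAAA only. Promoters were at hand for 42 of the 60 members. Of these, 14 held CCAAT and 9 held TATAAA on either strand, against 37.5% and 14.3% of all 27025 genes with a promoter of this length. Among the members called in healthy mice, 4 of 8 with a promoter that were higher in OP and 3 of 6 that were lower held CCAAT, and 2 of 8 and 2 of 6 held TATAAA. The core letters of the site bound by Runx factors, TGTGGT on either strand, was in 3 of 42 member promoters and in 15.9% of all, and in none of the 14 promoters of called members. None of the 3 motifs contains another on either strand, and these counts describe letters in a window only.

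The same comparison in myeloma-bearing mice used other libraries throughout. Of 53 members tested, 12 were higher in OP and 7 lower, where 1.60% of the 8793 genes tested were called higher and 1.75% lower. Of these, Col9a1, Col11a2 and Col24a1 exceeded 1 RPKM in at most 1 SP library and Col14a1 in no OP library, so that they passed the filter through the cells where they were high and their differences are a description only. Of the 20 members called in healthy mice 15 were called again (75.0%), which is 78.9% of the 19 called in myeloma-bearing mice. These were 10 that were higher and 5 that were lower, with none in the opposite direction. The 10 include Col9a1, Col11a2, Col22a1 and Col24a1, which passed the filter through OP in at least 1 of the comparisons. The share called again over all genes was not computed, so these percentages are not set against it. Acan, Col13a1, Col8a2, Comp and Fbn1 passed only in healthy mice, and Col14a1, Col27a1, Fn1 and Sparc only in myeloma-bearing mice. No member passed the test of the difference between the 2 comparisons, run as an interaction of cell type and condition.

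In myeloma-bearing mice the largest positive differences in OP were again those of cartilage collagens, with Col9a1 at 7.64 ± 0.77, Col9a2 at 5.97 ± 0.91, Col2a1 at 5.38 ± 0.63 and Col9a3 at 5.30 ± 0.93. Col1a1 stood at 702, 1066, 162, 933 and 962 RPKM in SP and 9341, 5144, 6110 and 4206 in OP (3.20 ± 0.46, adjusted p = 8.80e-04). Col1a2 stood at 511, 1620, 639, 2149 and 1081 RPKM in SP and 9969, 8655, 7855 and 4312 in OP (2.82 ± 0.39, adjusted p = 6.47e-04). Both chains were above every SP library in every OP library, and SP myeloma G was the lowest of all for Col1a1. Sparc stood at 3431, 4551, 2004, 5050 and 6153 RPKM in SP and 11300, 13031, 14351 and 9909 in OP (1.60 ± 0.29, adjusted p = 0.00522).

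The negative differences in OP of myeloma-bearing mice were led by Vcan (fell by 4.60, adjusted p = 0.00663), Aspn (fell by 3.90, adjusted p = 0.00245) and Col14a1, a FACIT chain (-3.53). Col3a1 stood at 1462, 2572, 1313, 1820 and 1027 RPKM in SP and 502, 49.1, 212 and 122 in OP and fell by 3.28. Dcn fell by 2.06 with the smallest error of the called members (SE 0.20, adjusted p = 1.85e-05), Prelp by 1.55 and Fn1 by 1.27. Fn1 stood at 2197, 2048, 1887, 3124 and 2545 RPKM in SP and 1220, 842, 1164 and 708 in OP, without overlap. Some markers of other cells differed in the same comparison. The fibroblast marker Dpt was 16.3 to 219 RPKM in SP and 0.0498 to 7.01 in OP, and the smooth muscle marker Acta2 was 29.3 to 194 in SP and 0.0767 to 13.5 in OP. From the same lists, Scx (-1.39), Tnmd (-1.47), Mkx (-0.88), Tagln (0.20) and Cspg4 (0.20) did not pass. The summed level was 142 to 583 RPKM in SP and 8.75 to 993 in OP for the 4 tendon and fibroblast markers, and 68.5 to 567 and 14.6 to 69.9 for the 5 pericyte and smooth muscle markers. The part of such cells in the falls was not tested.

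These counts rest on few libraries. In healthy mice the 20 calls became 12 without all libraries of letter L or of letter N, and in myeloma-bearing mice the 19 calls became 12 without letter G. Without only the SP library that carried neutrophil transcripts, the counts were 20 in healthy mice (18 of them shared) and 17 in myeloma-bearing mice (17 shared).

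**Figure D4:**
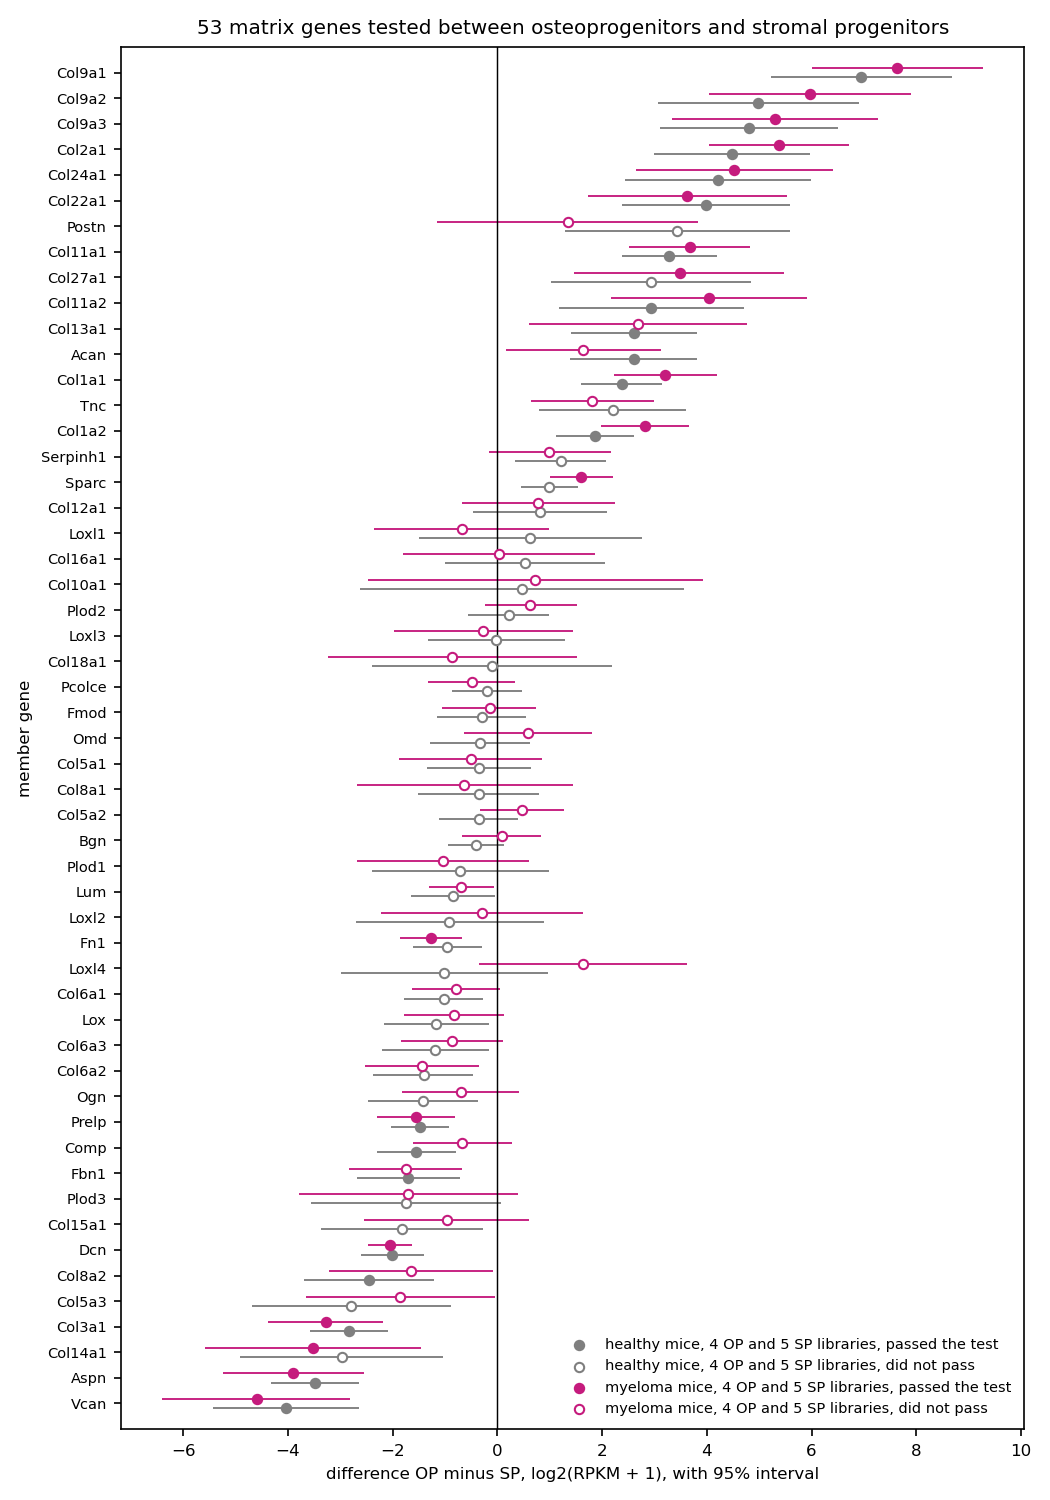
Difference between OP and SP, on the log2(RPKM + 1) scale with its 95% interval, for the 53 members tested in both healthy (grey) and myeloma-bearing mice (magenta), with filled points for members that passed the test. The collagen IX, II, XXIV, XXII and XI chains lie farthest to the right in both, and Vcan, Aspn, Col14a1 and Col3a1 farthest to the left.

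Ratios of fibrillar collagens were then taken within each library, without reference to other genes. In healthy SP the ratio of Col3a1 to Col1a1 ranged from 2.34 to 4.08 (median 2.63), and in healthy OP from 0.0329 to 0.286 (median 0.0667). On the log2(RPKM + 1) scale the difference was -5.21, the groups did not overlap, and p = 0.0159 was the smallest that an exact two-sided permutation test of 4 against 5 libraries can give (adjusted p = 0.0952 over 6 ratio tests). It was chosen with the levels of both genes known. The ratio of Col1a1 to Col1a2, whose products combine in collagen I, had medians of 0.658 in healthy SP, 0.658 in myeloma SP, 0.952 in healthy OP and 0.857 in myeloma OP, and it differed by 0.51 between healthy OP and SP (exact permutation test, p = 0.0635, adjusted p = 0.190). Myeloma against healthy gave -0.14 in SP (exact p = 0.762, adjusted p = 0.762) and -0.26 in OP (exact p = 0.229, adjusted p = 0.343) for this ratio, and -0.27 (exact p = 0.587, adjusted p = 0.705) and -1.54 (exact p = 0.171, adjusted p = 0.343) for Col3a1 to Col1a1. The SP value of the latter rested on single libraries, at -0.70 without letter G (adjusted p = 0.0952 by exact permutation) and 0.02 without letter J.

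The effect of myeloma on these genes was then examined in each niche population. No member passed the test in EC, SP or OP. In EC limma called 0 of 7880 genes, with 414 at an unadjusted p under 0.05, 1 of them among the 29 members tested. In SP it called 0 of 8747 genes, with 437 at an unadjusted p under 0.05 and 0 among the 50 members tested. In OP it called 1 of 8664 genes (0.0115%), with 422 at an unadjusted p under 0.05, 4 of them among the 53 members tested. The median difference of the members was 0.12 in EC, 0.01 in SP and 0.21 in OP, against 0.07, -0.00 and -0.03 over all genes tested. Groups that did not overlap were found for 0.914% of genes in EC, 0.697% in SP and 2.65% in OP, and for 0, 0 and 3 members.

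In SP the intervals differed in width between the abundant members. Dcn differed by -0.27 (95% interval -0.65 to 0.12), Sparc by 0.00 (-0.62 to 0.62), Bgn by 0.02 (-0.64 to 0.68), Lum by 0.06 (-0.62 to 0.75) and Col3a1 by -0.31 (-0.94 to 0.31). A change of 1 on this scale lay outside these 5 intervals. Col1a1 differed by -0.04 ± 0.46, with SP myeloma G at 162 RPKM and the other 4 at 702 to 1066. A change of 1 in size lay inside the intervals of Omd (-0.94, -1.93 to 0.06), Serpinh1 (0.68, -0.40 to 1.77) and Lox (0.39, -0.46 to 1.25). The largest differences were Postn (2.07 ± 1.31), Loxl1 (1.37 ± 0.88) and Tnc (0.71 ± 0.69) upward and Omd (-0.94 ± 0.47), Col10a1 (-0.75 ± 1.46) and Col11a2 (-0.60 ± 0.64) downward, with adjusted p of at least 0.956. Without SP healthy L or SP myeloma E no member passed either.

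In OP all but 1 of the 11 fibrillar chains had a difference above 0, none of which passed, with a median of 0.46. Col1a2 differed by 1.05 ± 0.37 (95% interval 0.25 to 1.85, unadjusted p = 0.0137, adjusted p = 0.981) and Col1a1 by 0.79 ± 0.36 (0.02 to 1.55, unadjusted p = 0.0447, adjusted p = 0.981). The groups overlapped for both. Sparc, Col13a1 and Loxl4 were the 3 members without overlap. Sparc stood at 8077, 5858, 8785 and 9164 RPKM in healthy and 11300, 13031, 14351 and 9909 in myeloma OP (0.61 ± 0.25, adjusted p = 0.981). Col13a1 stood at 5.54, 4.61, 5.41 and 6.26 RPKM and 21.8, 14.4, 20.5 and 15.3 (1.54 ± 0.74). Loxl4, a lysyl oxidase relative, stood at 1.50, 0.248, 2.50 and 2.76 RPKM and 8.31, 16.8, 3.69 and 15.8 (2.08 ± 0.90). Col5a3 (1.24 ± 0.95) had the third largest positive value, and Col3a1 (-0.76 ± 0.59), Col18a1 (-0.71 ± 1.18) and Col8a1 (-0.55 ± 0.94) had the largest negative values.

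In EC the intervals of most members were wide, with that of Col1a1 running from -0.39 to 4.08. Postn, a secreted protein of periosteum and of stroma around tumours, was at most 0.0691 RPKM in healthy EC and stood at 0.0163, 264, 11.2, 20.5 and 62.3 in myeloma EC. It was above all healthy values in 4 of 5 myeloma libraries and overlapped in D. Its difference of 4.37 ± 1.29 (95% interval 1.68 to 7.06, unadjusted p = 0.00300) had an adjusted p of 0.821 over the 7880 genes. It passed the filter only through those 4 libraries, so these values are a description. Without any 1 of the myeloma EC libraries E, G, I and J it exceeded 1 RPKM in only 3 libraries and was no longer tested. With all 38 libraries in the fit, which then share 1 estimate of the spread, Postn passed (adjusted p = 0.0765), where 1.18% of genes were called. Postn was also at 13.4 RPKM in MM lining J, at most 0.0595 in the other MM lining libraries and 0 to 181 in myeloma SP, and the part of RNA from other cells was not tested. Col6a3 (1.89 ± 1.21) and Col1a1 (1.85 ± 1.07) followed, and Eln (-2.11 ± 1.01), Col1a2 (-1.42 ± 0.96) and Comp (-1.13 ± 1.18) had the largest negative values. Eln stood at 1.54, 1.69, 9.18, 8.71 and 53.6 RPKM in myeloma EC, with library J the highest. Of the 5 pericyte and smooth muscle markers, Myh11 averaged 14.0 RPKM in healthy and 3.88 in myeloma EC, Acta2 135 and 100, and Rgs5 117 and 65.2. Tagln (80.2 and 84.3) and Cspg4 (0.471 and 1.26) went the other way. Their summed level was 153 to 557 RPKM in healthy and 0.0812 to 681 in myeloma EC, and the part of such cells in the Eln values was not tested. Without J the difference of Eln was -2.80 and did not pass.

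Voom-limma was also run on the reads recovered from the table, with all 38 libraries in the fit. With its default settings it called 2 members in OP, Col2a1 and Col1a2, where 0.211% of genes were called. Its curve of spread against level fell below 0 at the highest counts, where decorin, collagen and Sparc lie, and the weights of such values then rose to 5.26e+18 against 0.0921 at the lowest. With the curve fitted over a smaller part of the genes (span 0.1 in place of 0.5) the weights stayed between 0.086 and 33.5. It then called 0 members in OP (0.181% of genes, Col1a2 at 1.01 ± 0.25 with adjusted p = 0.103), 0 in SP (0.603%) and 1, Postn, in EC (1.90%, 8.32 ± 2.49 on a log2 scale of reads scaled to library size, adjusted p = 0.0979). This setting was chosen after the data were seen.

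**Figure D5:**
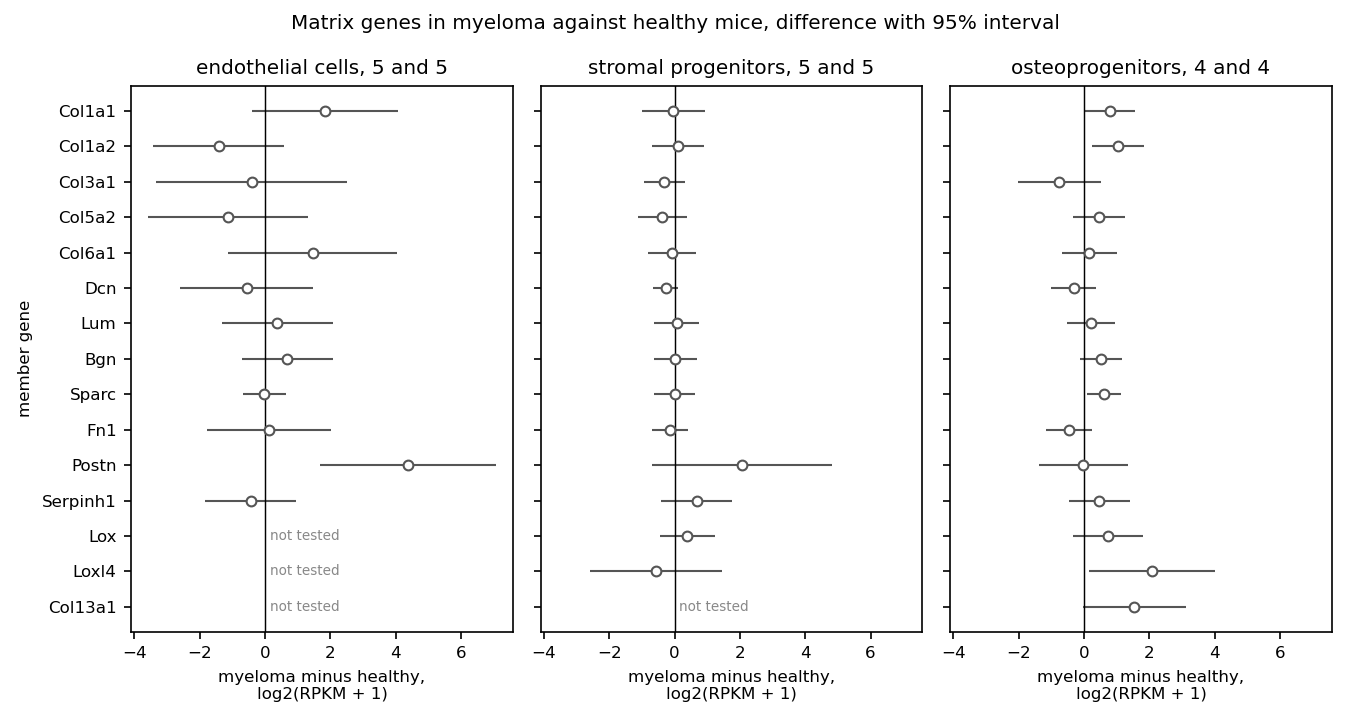
Difference between myeloma-bearing and healthy mice, on the log2(RPKM + 1) scale with its 95% interval, for 15 members in EC (5 and 5 libraries), SP (5 and 5) and OP (4 and 4), where open points did not pass the test and members under the filter are named as not tested. None of the points passed, and the SP intervals of Dcn, Sparc, Bgn and Lum lie within 1 of 0.

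Whether OP and SP responded differently to myeloma was tested as an interaction. Of 10735 genes limma called 0, with 437 at an unadjusted p under 0.05 and 1 of these among the 57 members tested. Voom-limma with the smaller span called 0 members (0.166% of genes). The member at an unadjusted p under 0.05 was Loxl4, whose change was larger in OP by 2.65 ± 1.26 (95% interval 0.04 to 5.25, unadjusted p = 0.0467, adjusted p = 1.000). Col1a1 gave 0.83 (-0.48 to 2.14) and Col1a2 0.95 (-0.20 to 2.10), so that differences of 2 on the log2 scale between the populations lie inside both intervals. Dcn gave -0.05 (-0.73 to 0.63) and Lum 0.16 (-0.84 to 1.16). Col25a1 (1.22) and Col11a2 (1.11) had the next largest positive values and Postn (-2.09), Col28a1 (-1.35) and Loxl1 (-1.31) the largest negative ones.

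Myeloma cells lining bone held little matrix RNA. Against the mean of the EC, SP and OP libraries of the same condition, 54 of 57 members tested were lower in MM lining and 1 was higher, where 19.8% of the 11363 genes tested were called lower and 20.1% higher. Of the 54, 47 exceeded 1 RPKM in at most 1 MM lining library, 32 of them in none, and passed the filter through the niche cells, where they were high. The other 7 were Sparc, Dcn, Fn1, Col1a2, Comp, Plod1 and Plod3. The median difference was -4.31, against 0.15 over all genes. The largest negative differences were those of Sparc (-9.67 ± 0.48), Bgn (-7.91 ± 0.61), Dcn (-7.85 ± 0.38), Fn1 (-7.32 ± 0.34), Lum (-7.31 ± 0.47), Col1a1 (-7.00 ± 0.62), Prelp (-6.90 ± 0.48), Col1a2 (-6.70 ± 0.56), Serpinh1 (-6.51 ± 0.44) and Comp (-6.49 ± 0.46). The adjusted p was at most 4.01e-09 for Sparc, Dcn, Fn1, Col1a2 and Comp, and for the other 5 the difference is a description only. Col13a1, Col28a1 and Col4a5 had no read in any of the 10 MM libraries, which allows each up to 2.08e-06% of their 144548106 reads on genes, counting error only. Sparc in MM lining was 0.780, 1.36, 2.92, 2.41 and 49.8 RPKM and Serpinh1 was 0.0167, 0.0870, 0.397, 0.273 and 0.796. Library J was the highest for both.

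MM lining J was also the highest of its group for Col3a1 (31.7 RPKM, others at most 0.444), Bgn (33.2, others at most 0.772), Col1a1 (12.6, others at most 0.910), Col6a1 (12.9, others at most 0.160) and Postn (13.4, others at most 0.0595). Those genes were at the highest levels in SP or OP, and the part of RNA from such cells in this library was not tested. Without this library 51 members passed, 50 lower and 1 higher, all of them among the 55 called with it. Bone lining myeloma cells held 4.54, 7.79, 13, 6.85 and 9.41 RPKM of Dcn and central ones 10.1, 5.40, 11, 11.3 and 12.2, and for this gene J was not apart.

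The single member higher in MM lining was Col20a1, a FACIT chain, at 1.87, 2.20, 1.24, 2.14 and 0.840 RPKM in MM lining and 5.23, 1.67, 3.24, 2.20 and 3.97 in MM central. The 28 libraries of niche cells were at most 1.31 RPKM and 20 of them were at 0. Its difference from the niche was 1.27 ± 0.26. It passed the filter through 4 MM lining libraries and 1 of OP, so this value is a description only, and without letter G it exceeded 1 RPKM in only 3 libraries and was not tested. Col7a1, the anchoring fibril collagen, was also highest in myeloma cells, at 0.687, 0.570, 0.216, 1.88 and 0.0244 RPKM in MM lining and 0.173, 0.306, 0.336, 0.662 and 0 in MM central, but it fell under the filter and was not tested. Plod1 (1.94 to 16.2 RPKM in MM lining) and Plod3 (1.12 to 12.7) were the maturation genes with the most RNA in myeloma cells, and Plod3 shares exonic bases with Znhit1 on the opposite strand.

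Between bone lining and central myeloma cells, limma called 18 of 8857 genes (0.203%) and none of the 8 members that passed the filter, of which 0 had an unadjusted p under 0.05. Voom-limma with the smaller span called 0 members too, where 0.0226% of genes were called. Sparc differed by 1.12 ± 0.71 (95% interval -0.38 to 2.63, and 0.28 without MM lining J), Col1a2 by 0.87 ± 0.64 (0.30 without J), Comp by 0.28 ± 0.40, Col20a1 by -0.65 ± 0.41, Col9a3 by -0.67 ± 0.50, Plod1 by -0.27 ± 0.49 and Dcn by -0.27 ± 0.38. The other member tested was Plod3, at 0.07 ± 0.54.

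Related genes outside the members were followed in the same fits as 3 lists. Genes that passed the filter only through the group where they were high were not counted apart for these lists. The counts of called genes below can include such genes and are a description only. Of 33 symbols listed for collagen synthesis and secretion, some of them older names of the same gene, 25 were in the table. All 25 were tested in healthy OP against SP (1.69% of all genes higher, 1.90% lower) and 1 passed, the trimming enhancer Pcolce2, which fell by 1.77 (adjusted p = 0.0165). In myeloma-bearing mice (1.60% of all genes higher, 1.75% lower) it fell by 2.11, while Lepre1, a prolyl 3-hydroxylase (2.87, adjusted p = 0.0639), and Serpinf1 (1.31, adjusted p = 0.0894) rose. Against EC, 19 of the 25 were higher in mesenchymal cells and 0 lower (13.7% and 7.95% of all genes tested), led by Pcolce2 (8.33) and the foldase Fkbp14 (5.47). In MM lining, 14 of 25 were lower than in the niche and 1, Tmem38b, was higher (1.64), against 19.8% and 20.1% of all genes.

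Of 41 microfibril and other matrix genes, 38 were in the table. In healthy OP against SP (1.69% of all genes higher, 1.90% lower), 2 of 36 tested were higher, Matn3 (6.13) and Hapln1 (3.05), and 11 were lower, led by Mfap5 (-6.11), a microfibril protein, Tnxb (-3.98), a tenascin of loose tissue, and Fbln2 (-3.97), a fibulin. In myeloma-bearing mice (1.60% and 1.75%) 2 of 34 were higher, the same genes, and 10 were lower, led by Mfap5 (-5.16), Fbln2 (-4.36) and Ecm1 (-3.75). Against EC (13.7% and 7.95%), 27 of 36 were higher and 4 lower, the latter led by Sparcl1 (-3.90), Fbln5 (-3.61) and Ltbp4 (-2.80). Of 5 tendon and fibroblast markers 4 were in the table, with a summed level of 91.7 to 647 RPKM in healthy SP and 29.6 to 956 in healthy OP. Dpt fell by 3.34 in healthy OP, Scx (-4.13) was at most 0.488 RPKM there and passed the filter through SP, Tnmd (-0.65) and Mkx (-0.12) did not pass, and the part of such cells in the list's falls was not tested.

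No collagen receptor passed the test between OP and SP, with 0 of 9 in healthy mice (1.69% of all genes higher, 1.90% lower) and 0 of 8 in myeloma-bearing mice (1.60% and 1.75%). Against EC (13.7% of all genes higher, 7.95% lower), 4 of 9 were higher in mesenchymal cells, led by the matrix receptor Cd44 (4.96), the integrin Itga10 (4.33) and the collagen-binding kinase Ddr2 (3.74), and Itga1 (-4.41) and Pxdn (-3.56) were lower. In MM lining (19.8% of all genes lower, 20.1% higher) 7 of 8 were lower than in the niche and Cd44 was higher (1.56). None of the 3 lists had a member that passed between myeloma-bearing and healthy mice.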

How the data were processed

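RNA from 38 libraries of 100 sorted cells in 8 groups was sequenced with single-end reads of 50 bp. Per the labels and the study's methods, the authors aligned reads to GRCm38/mm10 with STAR 2.4.0, counted them with featureCounts of Subread 1.4.5-p1 with default parameters, which do not use strand, dropped genes that did not exceed 1 CPM in 4 or more samples, and deposited RPKM values made with edgeR, which are scaled to gene length and to a size for each library. That size was not in proportion to the reads on genes, so RPKM may carry a further factor for each library, which is not stated. Here all 13260 genes gave whole reads when values were divided by the value of 1 read, and these reads were used only for depths, shares and voom-limma.

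Differences were fitted by limma 3.58.1 (R 4.3.3, trend on) to log2(RPKM + 1), using only the libraries compared and genes that exceeded 1 RPKM in 4 or more, and p-values were adjusted by Benjamini-Hochberg over all genes tested. A call needed an adjusted p below 0.1 and a log2 difference above 1. This scale understates the change of low genes. Intervals are 95% intervals of the fit, and ± gives the standard error unless SD is named. Ratios were tested by exact two-sided permutation (scipy 1.17.1). Scripts were tested on simulated data.

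The members, lists and rule for named genes were chosen with earlier results of these data known. Named were 13 members throughout, the members called in each comparison (up to 10 in each direction, or the 3 largest differences where fewer than 3 passed), the leading member of each role in each cell type, and up to 3 called genes in each direction from other lists. Genes were placed by RefSeq in GRCm38.p6, where 60 of 60 members matched. Alternatives covered the pseudocount, filter, threshold, scaling, trend, set of libraries, replicate letter, single letters left out and voom-limma.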

Additional observations from a re-analysis of the deposited data

Results flagged for a closer look

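In 14 of 89 groups of the named members, 1 library lay apart from the others of its group by Dixon's test at the 95% level. Chance alone gives about 1 in 20 such groups, and the groups share libraries. MM lining J gave 6 of them. It held 12.6 RPKM of Col1a1 (others 0.0781 to 0.910), 31.7 of Col3a1 (others 0.161 to 0.444), 12.9 of Col6a1 (others 0.0820 to 0.160), 33.2 of Bgn (others 0.154 to 0.772), 49.8 of Sparc (others 0.780 to 2.92) and 13.4 of Postn (others 0 to 0.0595). Among the other myeloma cells, MM central E was low for Dcn at 5.40 RPKM (others 10.1 to 12.2).

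In SP, library G of the myeloma group was low for Col1a1 at 162 RPKM (others 702 to 1066), and library D of that group had 0 RPKM of Postn (others 43.0 to 181). Healthy SP M was low for Col6a1 at 277 RPKM (others 497 to 609) and for Sparc at 2380 RPKM (others 4285 to 4788). In OP, healthy O was high for Col5a2 at 393 RPKM (others 190 to 215). In EC, healthy L held 230 RPKM of Lox, the lysyl oxidase that crosslinks collagen and elastin (others 0.0237 to 0.256), and myeloma I held 14.8 RPKM of Lum (others 0.310 to 1.30).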

How the results depend on the processing

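Between OP and SP the count of called members stayed within 1.5 times under every alternative other than leaving out single letters. It was 17 to 28 in healthy mice (20 as reported) and 15 to 24 in myeloma-bearing mice (19), both highest by voom-limma with span 0.1. With letters left out in turn it ran from 12 to 24 and from 12 to 17, mesenchymal cells against EC from 43 to 46, and MM lining against the niche from 49 to 54. The genes called changed more than the counts. Default voom-limma called 18 members in healthy OP against SP, 13 of them as reported, and 15 in myeloma-bearing mice, 12 of them as reported. It called 37 against EC (36 as reported) and 43 in MM lining against the niche (40 as reported). The counts of 0 stayed at 0 with each letter left out, and also under the other alternatives except in EC (1 with all 38 libraries in the fit, 1 by voom-limma with span 0.1) and in OP (2 by voom-limma with its default trend). Correlations of deviations between libraries of the same letter ran from -0.049 to 0.145. Some exceeded the highest correlation with another letter, as for G in MM lining and myeloma EC (0.145 against -0.012), and others did not. The letters were thus not shown to pair the libraries, and a weak pairing was not excluded. With the letter as a block, 18, 16, 47 and 55 members were called in these 4 comparisons and 0 in the interaction and in MM lining against central.

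Counts over all genes differed between tools and between sets of libraries in the fit. For OP against SP voom-limma called 755 (span 0.1) or 646 (default) in healthy mice and 671 or 567 in myeloma-bearing mice, against 312 and 295 by limma, and with all 38 libraries in the fit limma called 501 and 600. With all 38 libraries limma called 150 genes in EC, 28 in SP and 24 in OP between myeloma-bearing and healthy mice, and voom-limma called 251 or 252, 82 or 80 and 28 or 24. An adjusted p below 0.05 left 177 for OP against SP in myeloma-bearing mice, and the block left 195. MM lining against central gave 18 by limma, 12 by default voom-limma, 12 with the block and 3 with span 0.1.

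With letters left out in turn, the ratio of Col3a1 to Col1a1 differed between healthy OP and SP by -5.87 to -4.74 (adjusted p 0.171 to 0.343 by exact permutation, none below 0.1). The smallest p that this test can give rises with fewer libraries, to 0.0286 for 4 against 4. In SP it differed between myeloma-bearing and healthy mice by -0.70 (without G, adjusted p = 0.0952 by exact permutation) to 0.02 (without J), and in OP by -1.96 to -0.92. The ratio of Col1a1 to Col1a2 differed by -0.43 to 0.18 (without G) in SP, by -0.36 to -0.12 in OP and by 0.36 to 0.65 between healthy OP and SP. For 106 results for single genes, 1494 values under the alternatives stayed as reported, 107 were weaker and 5 stronger. A further 4 values changed sign, all without a call. With letters left out in turn, Col10a1 in SP ran from -1.75 to 0.07 (0.06 without G, 0.07 without I), Col8a1 in OP from -1.13 to 0.53 (without I) and Plod1 in MM lining against central from -0.56 to 0.19 (without E). The cause of these changes was not tested. Intervals rest on 4 or 5 libraries of 100 cells, and below about 1 RPKM a level rests on few reads.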
